A study of Homo sapiens with 9 samples.

Results

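Described here are 34 genes of the endoplasmic reticulum (ER) folding machinery and of the unfolded protein response, chosen by name as a gene module. All 34 were found once among the 61544 genes listed, and all 34 had enough reads to be tested, as had 14727 genes in all. They were measured by RNA sequencing of HMC3 cells, a human microglial line immortalised with the SV40 T antigen, in 9 libraries of 3 groups, 3 libraries per group. The cells were kept for 6 days in DMSO alone (VEH), in a reduced dose of a cocktail of small molecules (SLO ½: SBI-0206965 at 5 µM, O-151 at 0.5 µM and Lopinavir at 0.5 µM) or in its full dose (SLO: 10 µM, 1 µM and 1 µM). DMSO was the solvent of every group. SBI-0206965 inhibits the autophagy kinase ULK1, O-151 inhibits the DNA glycosylase OGG1, and Lopinavir, an HIV protease inhibitor, also blocks the maturation of lamin A. The cocktail was given to induce senescence, and the comparisons ask what either dose changed against VEH and whether the doses differed. The 3 compounds were given together, so their separate effects cannot be told apart. Nothing in the labels says whether the 3 libraries of a group came from separate cultures, so the p-values below measure the spread between these libraries, which may be technical.

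Proteins that enter the ER are threaded through the Sec61 translocon, folded by Hsp70 and Hsp90 chaperones, by lectins that bind sugar chains and by enzymes that form disulfide bonds, and, if they stay unfolded, are pulled back to the cytosol for degradation. When unfolded proteins build up, the sensors IRE1 (gene ERN1), PERK (EIF2AK3) and ATF6 start the unfolded protein response, in which spliced XBP1 and cleaved ATF6 raise the transcription of these genes while PERK slows translation and favours ATF4. Microglia secrete cytokines and renew surface receptors, both of which pass through this route. Read counts per gene do not tell spliced from unspliced XBP1 mRNA and do not show the cleavage of ATF6 or the phosphorylation of PERK and IRE1, so the values below are levels of mRNA and not of pathway activity.

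The transcription factors of this response bind DNA through the ER stress response element (ERSE), CCAAT and CCACG separated by 9 bases, or through ERSE-II, ATTGG and CCACG separated by 1 base. The sites are printed here as a feature of sequence that several of the genes below share. The genes were chosen by name as genes of this response, so the shares below are a description and not an independent finding. The windows searched, on both strands, ran from 250 bases before to 50 bases after the annotated gene starts of RefSeq on GRCh38.p14, and 31 of the 34 genes had a window. Only exact matches of the fixed letters were counted and marked, so a stretch or gene without a match may hold a near match. ERSE was found in 8 of these 31 genes (25.8%) and in 0.092% of the 27305 gene symbols with a window. ERSE-II was found in 3 of the 31 (9.7%) and in 0.07% of all symbols. Each site below is written in the direction of the motif, 5′ to 3′, with the fixed letters in capitals and the spacer in lower case. The ERSE sites were these.
ERO1B, chr1:236282183-236282201: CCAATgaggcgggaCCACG
PDIA6, chr2:10812853-10812871: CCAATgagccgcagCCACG
CANX, chr5:179698778-179698796: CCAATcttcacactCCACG
HSPA5, chr9:125241391-125241409: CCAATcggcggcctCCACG
HSP90B1, chr12:103930216-103930234: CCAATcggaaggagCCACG
HSP90B1, chr12:103930321-103930339: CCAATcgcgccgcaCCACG
CALR, chr19:12938384-12938402: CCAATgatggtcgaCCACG
XBP1, chr22:28800603-28800621: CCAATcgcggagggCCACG
CRELD2, chr22:49918554-49918572: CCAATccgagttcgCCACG
The ERSE-II sites were these.
HYOU1, chr11:119057380-119057390: ATTGGaCCACG
HYOU1, chr11:119057274-119057284: ATTGGaCCACG
HERPUD1, chr16:56932025-56932035: ATTGGgCCACG
SDF2L1, chr22:21642114-21642124: ATTGGtCCACG
The ERSE site of PDIA6 lies before its downstream annotated start and not before its upstream one. HSP90B1 and HYOU1 each hold a pair of sites. The spacers differ from gene to gene, whereas the 2 sites of HYOU1 are identical in sequence.

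To show the sites in place, the 200 bases before the start are printed for 4 genes, HSPA5 and PDIA6, which fell, and HYOU1 and CRELD2, which rose, each read along the strand of the gene with the motif letters in capitals.
HSPA5, chr9:125241344-125241543, minus strand: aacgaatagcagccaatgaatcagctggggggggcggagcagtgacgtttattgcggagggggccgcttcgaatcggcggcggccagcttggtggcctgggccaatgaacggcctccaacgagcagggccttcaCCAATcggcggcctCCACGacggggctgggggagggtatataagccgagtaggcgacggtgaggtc
PDIA6, chr2:10812786-10812985, minus strand: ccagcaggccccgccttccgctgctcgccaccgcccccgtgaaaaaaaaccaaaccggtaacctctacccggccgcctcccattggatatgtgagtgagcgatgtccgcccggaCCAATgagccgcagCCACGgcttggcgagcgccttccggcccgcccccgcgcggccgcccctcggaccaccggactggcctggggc
HYOU1, chr11:119057206-119057405, minus strand: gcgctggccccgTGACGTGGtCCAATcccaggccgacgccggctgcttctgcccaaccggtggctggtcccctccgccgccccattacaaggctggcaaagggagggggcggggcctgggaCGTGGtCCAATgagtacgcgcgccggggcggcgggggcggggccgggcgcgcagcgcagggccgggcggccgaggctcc
CRELD2, chr22:49918434-49918633, plus strand: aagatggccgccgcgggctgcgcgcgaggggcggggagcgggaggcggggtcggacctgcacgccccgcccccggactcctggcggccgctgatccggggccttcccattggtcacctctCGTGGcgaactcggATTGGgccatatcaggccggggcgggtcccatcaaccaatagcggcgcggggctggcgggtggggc
In HSPA5 and PDIA6 the site reads in the direction of the gene, and in HYOU1 and CRELD2 in the opposite direction. Not all genes listed above followed that split. HERPUD1, which rose, has its site in the gene direction, and HSP90B1, which fell, has sites in both directions. SDF2L1 and ERO1B, which rose in SLO, have opposite sites, and XBP1, which fell in SLO, has one in the gene direction. CALR (opposite) and CANX (gene direction) were not called in SLO. The capitals of HYOU1 also hold TGACGTGG, the core of the unfolded protein response element (UPRE), which overlaps its distal ERSE-II. That core was found in 2 of the 31 genes, HYOU1 and TXNDC5, and in 0.927% of all symbols. TGATGNAA, the amino acid response element that ATF4 and its partners bind, was found in 2 of the 31, CREB3L2 and HERPUD1, and in 4.457% of all symbols. A match is a description of the letters and not evidence that a factor was bound.

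Both doses changed most of the 34 genes, in both directions and mostly by small amounts. A gene was called higher or lower at an adjusted p below 0.05 by the quasi-likelihood test of edgeR with Benjamini-Hochberg adjustment over all 14727 genes, and every adjusted p below is of this kind. In SLO against VEH, 15 of the 34 were higher (44.1%), 11 lower (32.4%) and 8 not called, where 32.9% of all tested genes were higher and 32.1% lower. In SLO ½ against VEH, 16 were higher (47.1%), 9 lower (26.5%) and 9 not called, against 26.7% and 25.3% of all tested genes. In SLO against SLO ½, 6 were higher (17.6%), 10 lower (29.4%) and 18 not called, against 20.8% and 20.3%. The shares called lower against VEH lay near those of all genes, and the shares called higher lay above them, with no test of the set as a whole. The 34 genes were chosen with earlier results of these data known, so these shares are a description and not an independent finding. Across the alternatives other than leaving a library out, 13 to 19 were higher in SLO and 11 to 19 in SLO ½. The median log2 fold change of the 34 was 0.039 in SLO, 0.11 in SLO ½ and -0.018 between the doses, beside 0.014, 0.015 and -0.0014 over all tested genes. Scaled by library size alone, the split between the doses became 9 higher and 9 lower in place of 6 and 10, and by limma on log2(TPM + 1) 8 higher and 7 lower. Since each library is RNA of a whole culture, a change in every cell and a change in the share of cells with more or less of an mRNA cannot be told apart. Both comparisons with VEH use the same 3 VEH libraries, so they are given side by side and not counted as support for each other.

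**Figure D1:**
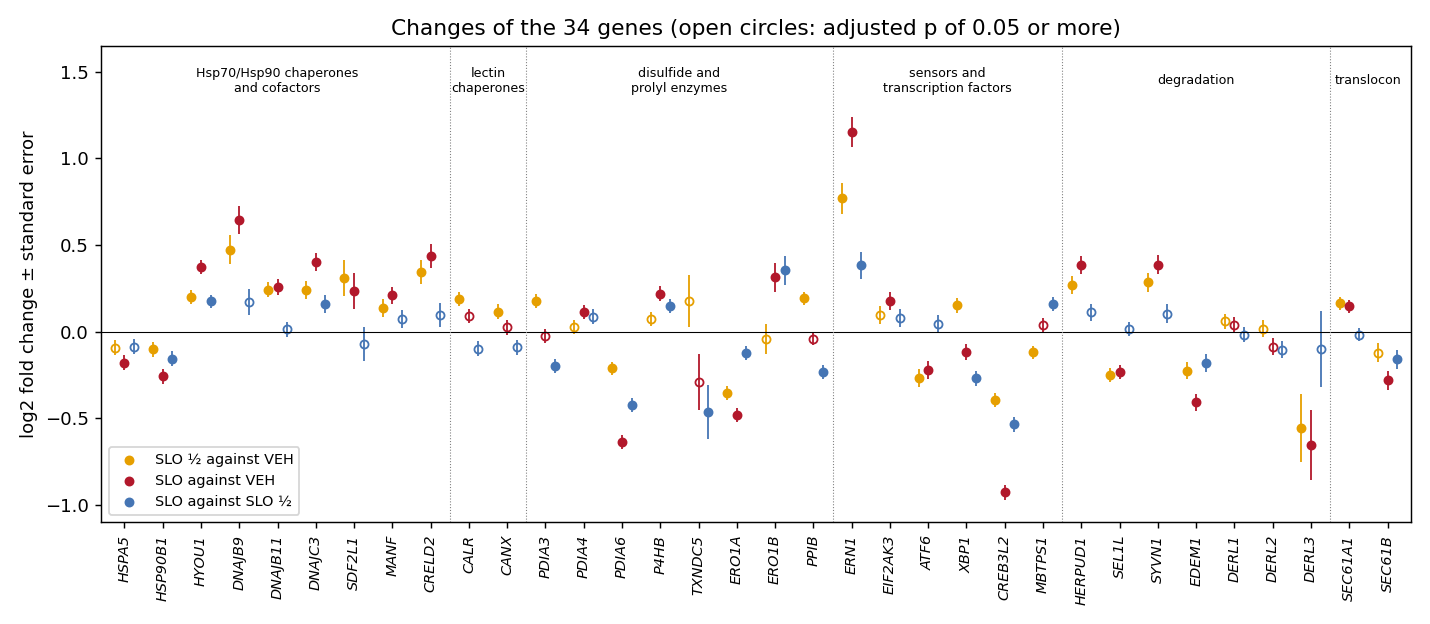
Log2 fold change of each of the 34 genes with its standard error for SLO ½ against VEH, SLO against VEH and SLO against SLO ½, with 3 libraries per group. Genes are grouped by role, and open circles did not reach an adjusted p below 0.05. ERN1 (1.15 in SLO against VEH) and CREB3L2 (-0.93) lie farthest from 0.

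The cofactors and partners of the ER Hsp70 rose while the abundant chaperones HSPA5 and HSP90B1 fell. Of the 9 genes of the Hsp70 and Hsp90 system, 7 rose (77.8%) and 2 fell (22.2%) in SLO against VEH. In SLO ½ against VEH, 7 rose (77.8%), 1 fell (11.1%) and 1 was not called. Over all tested genes 32.9% were higher and 32.1% lower in SLO, and 26.7% and 25.3% in SLO ½. Levels are given as CPM, the reads of a gene as a share of all reads on the 14727 tested genes in parts per 1000000, scaled by TMM. They are given for replicates 1, 2 and 3 of each group.

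HSPA5 (ENSG00000044574.9, chr9:125234853-125241382), which encodes BiP, the main Hsp70 of the ER and the protein whose release switches on the sensors, had 1166, 1266 and 1257 CPM in VEH, 1184, 1150 and 1124 under SLO ½ and 1138, 1030 and 1089 under SLO. All 3 SLO libraries lay below all 3 VEH libraries, while SLO ½ overlapped both. HSPA5 fell by 11.7% under SLO (a log2 fold change of -0.18 ± 0.044, where ± gives the standard error, with an adjusted p of 0.000676). Its difference in SLO ½ was -0.093 ± 0.044 (adjusted p = 0.0747), and it was called lower there by DESeq2 (0.0466), with no filter on low counts (0.0308), by limma on log2(TPM + 1) (0.0429) and without VEH replicate 1 (0.0169). HSP90B1, which encodes the Hsp90 of the ER, GRP94, had 1917, 1958 and 1894 CPM in VEH, 1800, 1808 and 1769 under SLO ½ and 1700, 1502 and 1622 under SLO. Its groups did not overlap in any comparison, and the SLO libraries were lowest. HSP90B1 fell by 16.4% in SLO (-0.26 ± 0.043, adjusted p = 5.66e-06) and was also lower in SLO than in SLO ½ (-0.16 ± 0.043, adjusted p = 0.00399). In SLO ½ against VEH it was -0.10 ± 0.043 with an adjusted p of 0.0482, a call that was lost without VEH replicate 1 (adjusted p = 0.0637), without VEH replicate 2 (0.119) or without any SLO ½ replicate (0.0737 to 0.138), with library size alone (0.287) and with at least 10 counts in every library (0.111).

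HYOU1, a large Hsp70 relative that releases ADP from BiP, had 301, 313 and 298 CPM in VEH, 355, 350.2 and 342 under SLO ½ and 408, 382 and 393 under SLO. The 3 groups did not overlap and lay in the order of the dose. HYOU1 rose 1.30-fold in SLO (0.37 ± 0.039, adjusted p = 1.87e-09), rose in SLO ½ (0.20 ± 0.039, adjusted p = 9.59e-05) and was higher in SLO than in SLO ½ (0.17 ± 0.039, adjusted p = 0.000643). DNAJB9 (ENSG00000128590.5, chr7:108569867-108574850), a J-domain cochaperone that brings BiP back to IRE1, had 18.2, 15.7 and 16.4 CPM in VEH, 24.1, 21.1 and 24.6 under SLO ½ and 28.8, 24.2 and 25.6 under SLO. Every treated library lay above every VEH library, and the doses overlapped. DNAJB9 rose 1.56-fold in SLO (0.64 ± 0.082, adjusted p = 7.09e-08) and 1.39-fold in SLO ½ (0.47 ± 0.083, adjusted p = 2.05e-05), the largest rise of this group at either dose. DNAJC3, the cochaperone P58IPK that also restrains PERK, had 84.8, 99.3 and 96.2 CPM in VEH, 116, 106 and 109.5 under SLO ½ and 129, 115 and 126 under SLO. Its treated libraries all lay above VEH. DNAJC3 rose 1.32-fold in SLO (0.40 ± 0.053, adjusted p = 1.28e-07) and 1.18-fold in SLO ½ (0.24 ± 0.053, adjusted p = 0.000354). The difference between the doses (0.16 ± 0.052, adjusted p = 0.0138) lost its call without SLO ½ replicate 2 (adjusted p = 0.0835), SLO replicate 1 (0.0915) or SLO replicate 3 (0.0579).

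The remaining 4 genes of the group rose as well, and calls of MANF and SDF2L1 were lost under several alternatives. CRELD2, a small ER protein with EGF-like repeats that ER stress induces, rose 1.35-fold in SLO (0.44 ± 0.07, adjusted p = 3.03e-06) and 1.27-fold in SLO ½ (0.34 ± 0.07, adjusted p = 0.000149). DNAJB11, a cochaperone that hands unfolded proteins to BiP, rose 1.20-fold in SLO (0.26 ± 0.044, adjusted p = 8.66e-06) and 1.18-fold in SLO ½ (0.24 ± 0.044, adjusted p = 3.22e-05). For MANF, a secreted neurotrophic factor that binds BiP, the rise was 1.16-fold in SLO (0.21 ± 0.05, adjusted p = 0.00057), and in SLO ½ (0.14 ± 0.05, adjusted p = 0.023) 1 of the 3 libraries fell within the VEH range. That SLO ½ call of MANF was lost without VEH replicate 2 (adjusted p = 0.0857), VEH replicate 3 (0.0889) or SLO ½ replicate 2 (0.085, adjusted p = 0.204), with no filter on low counts (0.0778), by DESeq2 (0.0697) and by limma on log2(TPM + 1) (0.093, adjusted p = 0.108). SDF2L1, a partner of DNAJB11 with 7.55 to 10.2 CPM, rose in SLO ½ (0.31 ± 0.1, adjusted p = 0.0114) and passed the threshold narrowly in SLO (0.24 ± 0.1, adjusted p = 0.0459). The SLO call of SDF2L1 was lost without any 1 of the VEH replicates or without SLO replicate 1 or 3 (adjusted p 0.0571 to 0.16), and its SLO ½ call without VEH replicate 2 (0.0564).

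**Figure D2:**
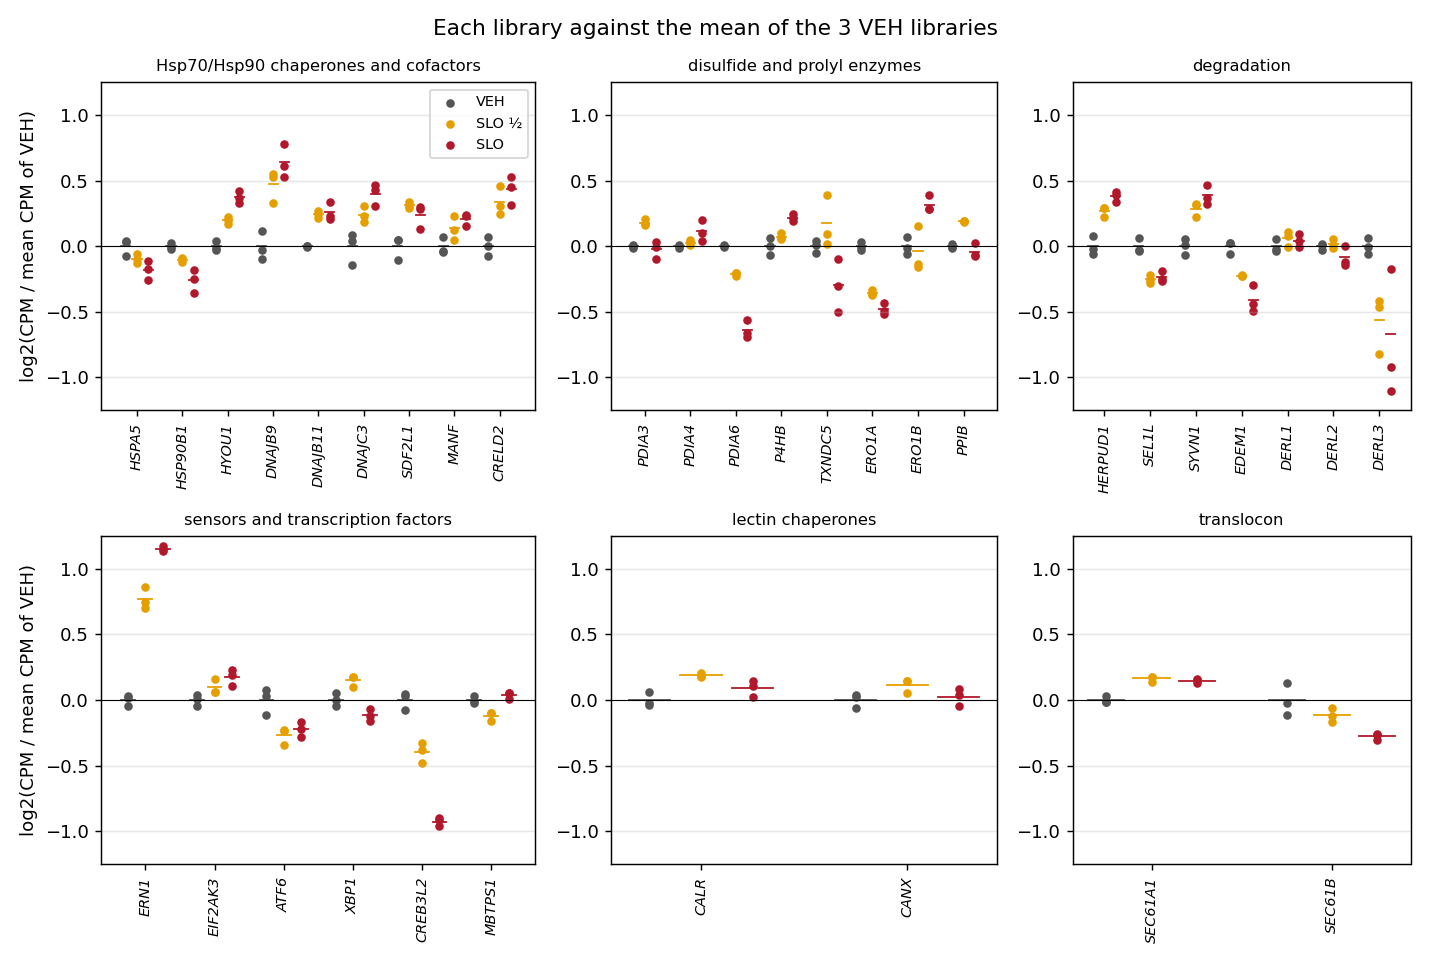
Every library's value for the 34 genes as log2 of its CPM over the mean CPM of the 3 VEH libraries, by role, with 1 point per library and a bar at the log2 of the group's mean. The 3 groups of ERN1, CREB3L2, PDIA6 and HYOU1 do not overlap, and the 3 DERL3 libraries of SLO spread most, from 1.69 to 3.24 CPM.

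The lectin chaperones CALR and CANX rose in SLO ½ and were not called in SLO, where the call depended on the scaling. With libraries scaled by size alone both were called higher in SLO (CALR 0.16, adjusted p = 0.000467, and CANX 0.099, adjusted p = 0.034). CALR, the soluble lectin calreticulin that also buffers calcium, had 1223, 1291 and 1209 CPM in VEH, 1428, 1403 and 1407 under SLO ½ and 1368, 1259 and 1333 under SLO. The SLO ½ libraries lay above both other groups, while SLO overlapped VEH. CALR rose 1.14-fold in SLO ½ (0.19 ± 0.041, adjusted p = 0.000373), and its difference in SLO was 0.089 ± 0.041 (adjusted p = 0.0604), which also passed with at least 10 counts in every library (0.0188), with the replicate number as a block (0.0466), without VEH replicate 2 (0.0321) or without SLO replicate 2 (0.0106). CANX, its membrane-bound relative calnexin, had 1499, 1603 and 1590 CPM in VEH, 1729, 1622 and 1733 under SLO ½ and 1658, 1511 and 1604 under SLO. All SLO ½ libraries lay above VEH, by a narrow margin, and SLO overlapped VEH. CANX rose 1.08-fold in SLO ½ (0.12 ± 0.044, adjusted p = 0.0268), a call lost without VEH replicate 1 (0.148), SLO ½ replicate 1 (0.114) or SLO ½ replicate 3 (0.129), with the size factors of DESeq2 (0.0511) and by limma on log2(TPM + 1) (0.074, adjusted p = 0.248). Between the doses the differences were -0.10 ± 0.041 for CALR (adjusted p = 0.0587) and -0.091 ± 0.044 for CANX (adjusted p = 0.096), so a fall from SLO ½ to SLO was not called for either gene. It was called for both without SLO replicate 1 (adjusted p = 0.03 and 0.0425), for CANX without SLO ½ replicate 2 (0.0464), and for CALR with the replicate block (0.0427) and with only the compared groups fitted (0.0429).

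Among the 8 enzymes of disulfide bond formation and proline isomerisation, genes moved apart. In SLO, 3 rose (37.5%), 2 fell (25%) and 3 were not called, where 32.9% of all tested genes were higher and 32.1% lower. In SLO ½, 2 rose (25%), 2 fell (25%) and 4 were not called, against 26.7% and 25.3% of all tested genes. Between the doses 2 were higher (25%) and 5 lower (62.5%) in SLO, against 20.8% and 20.3%. PDIA6 (ENSG00000143870.13, chr2:10783391-10837977), a disulfide isomerase that also attenuates IRE1 signalling, had 469.9, 465 and 468 CPM in VEH, 405, 407 and 399 under SLO ½ and 317, 289.7 and 296 under SLO. The groups were far apart and stepped down with the dose. PDIA6 fell by 13.7% in SLO ½ (-0.21 ± 0.039, adjusted p = 4.2e-05) and by 35.6% in SLO (-0.64 ± 0.04, adjusted p = 2.78e-14), and was lower in SLO than in SLO ½ (-0.42 ± 0.04, adjusted p = 1.02e-09). ERO1A, the oxidase that recharges the isomerases and is induced by hypoxia, had 244, 247 and 253 CPM in VEH, 193, 192 and 197 under SLO ½ and 174, 176 and 184 under SLO. These groups did not overlap either. ERO1A fell by 21.8% in SLO ½ (-0.36 ± 0.039, adjusted p = 8.8e-09) and by 28.3% in SLO (-0.48 ± 0.039, adjusted p = 9.06e-12). The smaller step between the doses (-0.12 ± 0.039, adjusted p = 0.0117) lost its call without SLO ½ replicate 3 (0.0626) or SLO replicate 1 (0.0545) and by limma on log2(TPM + 1) (0.0767).

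P4HB, which encodes the classical protein disulfide isomerase and the beta subunit of collagen prolyl 4-hydroxylase, had 1546, 1480 and 1411 CPM in VEH, 1535, 1548 and 1585 under SLO ½ and 1758, 1693 and 1716 under SLO. All SLO libraries stood above every other library, and SLO ½ overlapped VEH. P4HB rose 1.17-fold in SLO (0.22 ± 0.041, adjusted p = 2.92e-05) and was higher in SLO than in SLO ½ (0.15 ± 0.041, adjusted p = 0.00475), with 0.073 ± 0.041 in SLO ½ against VEH (adjusted p = 0.136), which passed with library size alone (0.12, adjusted p = 0.00829). ERO1B, the second ERO1 oxidase, had 16.1, 16.5 and 17.6 CPM in VEH, 18.6, 15.2 and 14.97 under SLO ½ and 20.3, 20.3 and 21.9 under SLO. It rose 1.24-fold in SLO (0.31 ± 0.084, adjusted p = 0.00175), where its paralogue ERO1A fell. SLO was also above SLO ½ (0.35 ± 0.084, adjusted p = 0.00106). The third rise in SLO was that of PDIA4, a disulfide isomerase with several thioredoxin domains (0.11 ± 0.041, adjusted p = 0.0166), and it was lost without SLO replicate 1 (0.066, adjusted p = 0.185) and with no filter on low counts (0.0793).

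PDIA3 and PPIB rose in SLO ½ and were not called in SLO against VEH. PDIA3, the isomerase that works with calnexin and calreticulin, had 722, 720.4 and 711 CPM in VEH, 802, 806 and 827 under SLO ½ and 735, 671 and 714 under SLO. All SLO ½ libraries lay above all others, and SLO straddled VEH. PDIA3 rose 1.13-fold in SLO ½ (0.18 ± 0.04, adjusted p = 0.000465) and was lower in SLO than in SLO ½ (-0.20 ± 0.04, adjusted p = 0.000171), with -0.023 ± 0.04 in SLO against VEH (adjusted p = 0.632). PPIB, the ER prolyl isomerase cyclophilin B, had 332, 339 and 334 CPM in VEH, 380, 383 and 384 under SLO ½ and 339.8, 318 and 319 under SLO. As for PDIA3, the SLO ½ libraries lay above every other library. PPIB rose 1.14-fold in SLO ½ (0.19 ± 0.039, adjusted p = 0.000126) and was lower in SLO than in SLO ½ (-0.23 ± 0.039, adjusted p = 1.61e-05), with -0.04 ± 0.039 in SLO against VEH (adjusted p = 0.368). TXNDC5, a thioredoxin-domain isomerase with 2.93 to 5.43 CPM, was called only between the doses (-0.47 ± 0.16, adjusted p = 0.018), and that call was lost without SLO ½ replicate 2 (0.126) or SLO replicate 3 (0.0939). Its level is uncertain, since 60.9% of its exonic bases in GENCODE 44 are shared with the readthrough gene BLOC1S5-TXNDC5 on the same strand.

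The sensors and transcription factors held the largest rise of the 34 genes in either comparison with VEH, that of ERN1, and the largest fall in SLO, that of CREB3L2. DERL3, a scarce degradation gene, had a larger fitted fall than CREB3L2 in SLO ½ (-0.55 against -0.39) and in SLO without SLO replicate 2 (-1.01 against -0.91). Of the 6 sensors and factors, 2 rose (33.3%), 3 fell (50%) and 1 was not called, at either dose. Over all tested genes 32.9% were higher and 32.1% lower in SLO, and 26.7% and 25.3% in SLO ½. ERN1 (ENSG00000178607.17, chr17:64039080-64130819), which encodes IRE1, the kinase and RNase that splices XBP1, had 8.70, 9.19 and 9.09 CPM in VEH, 14.7, 16.3 and 15.1 under SLO ½ and 19.7, 20.01 and 20.3 under SLO. The 3 groups were well separated and rose with the dose. ERN1 rose 1.71-fold in SLO ½ (0.77 ± 0.088, adjusted p = 2.08e-08) and 2.22-fold in SLO (1.15 ± 0.085, adjusted p = 1.15e-12), and was 1.30-fold higher in SLO than in SLO ½ (0.38 ± 0.077, adjusted p = 0.000193). By limma on unfiltered log2(TPM + 1) the adjusted p between the doses was 0.059. CREB3L2 (ENSG00000182158.16, chr7:137874979-138002086), which encodes an ER-bound factor that is cut free to drive genes of the secretory coat, had 501, 498 and 462 CPM in VEH, 388, 348 and 374 under SLO ½ and 258, 249.5 and 260.4 under SLO. These groups were separate as well, in the opposite order. CREB3L2 fell by 23.9% in SLO ½ (-0.39 ± 0.043, adjusted p = 9.4e-09) and by 47.5% in SLO (-0.93 ± 0.044, adjusted p = 5.13e-17), and was lower in SLO than in SLO ½ (-0.53 ± 0.044, adjusted p = 8.15e-11).

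XBP1 (ENSG00000100219.17, chr22:28794555-28800597), the substrate of IRE1 and the source of a main activator of ER chaperone genes, was called in opposite directions at the doses. XBP1 had 106, 103 and 99.5 CPM in VEH, 116, 116 and 110.3 under SLO ½ and 91.8, 94.5 and 98.1 under SLO. The SLO ½ libraries were the highest and the SLO libraries the lowest, with no overlap between any groups. XBP1 rose 1.11-fold in SLO ½ (0.15 ± 0.044, adjusted p = 0.0043), fell by 7.86% in SLO (-0.12 ± 0.044, adjusted p = 0.0216) and was lower in SLO than in SLO ½ (-0.27 ± 0.044, adjusted p = 1.16e-05). The fall in SLO was the least firm of these: it lost its call without VEH replicate 1 (-0.098, adjusted p = 0.0761), without SLO replicate 1 (-0.098, 0.0874) with libraries scaled by size alone (-0.043, 0.392) and with at least 10 counts required in every library (-0.095, 0.0569). The rise in SLO ½ lost its call by limma on unfiltered TPM (0.11, 0.0612).

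Of the other sensors, PERK mRNA rose in SLO and ATF6 mRNA fell at both doses. EIF2AK3, which encodes PERK, had 49.9, 48.8 and 47.2 CPM in VEH, 50.6, 54.4 and 50.8 under SLO ½ and 52.2, 57.1 and 55.5 under SLO. Every treated library lay above every VEH library. EIF2AK3 rose 1.13-fold in SLO (0.18 ± 0.053, adjusted p = 0.00447) and was not called in SLO ½ (0.10 ± 0.053, adjusted p = 0.13), except with library size alone (0.15, adjusted p = 0.023). By limma on log2(TPM + 1) the SLO difference was 0.16 (adjusted p = 0.0681). ATF6, the membrane-bound factor that is cut in the Golgi to become active, had 87.9, 90.9 and 79.5 CPM in VEH, 73.6, 67.7 and 73.2 under SLO ½ and 73.7, 70.9 and 76.6 under SLO. Both treated groups lay below VEH and overlapped each other. ATF6 fell by 16.8% in SLO ½ (-0.27 ± 0.052, adjusted p = 8.11e-05) and by 14.3% in SLO (-0.22 ± 0.052, adjusted p = 0.000453), and the doses differed by 0.044 ± 0.053 (adjusted p = 0.539). MBTPS1, which encodes the site-1 protease that makes the initial cut in ATF6 and CREB3L2, had 180.3, 174 and 175 CPM in VEH, 165, 157 and 164 under SLO ½ and 183, 178 and 183 under SLO. All SLO ½ libraries lay below VEH, and SLO overlapped VEH with 2 of its 3 libraries just above the VEH range. MBTPS1 fell by 7.97% in SLO ½ (-0.12 ± 0.039, adjusted p = 0.0116), was higher in SLO than in SLO ½ (0.16 ± 0.039, adjusted p = 0.00169) and differed by 0.038 ± 0.039 in SLO against VEH (adjusted p = 0.399). The SLO ½ call was lost without SLO ½ replicate 2 (0.072) and with libraries scaled by size alone (-0.07, adjusted p = 0.125), a scaling that called MBTPS1 higher in SLO (0.11, adjusted p = 0.0104).

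Genes of ER-associated degradation were divided between rises and falls within the same complex. Of 7 genes, 2 rose (28.6%), 3 fell (42.9%) and 2 were not called, at either dose. Over all tested genes 32.9% were higher and 32.1% lower in SLO, and 26.7% and 25.3% in SLO ½. EDEM1 was the only gene of the group called between the doses in the edgeR fit. SYVN1, which encodes the ubiquitin ligase HRD1, had 35.4, 37.4 and 38.5 CPM in VEH, 43.3, 46.3 and 46.1 under SLO ½ and 47.9, 51.3 and 46.3 under SLO. The treated libraries lay above VEH. SYVN1 rose 1.31-fold in SLO (0.39 ± 0.057, adjusted p = 9.23e-07) and 1.22-fold in SLO ½ (0.28 ± 0.057, adjusted p = 0.000131). SEL1L, the partner that holds HRD1 in its complex, fell by 15.02% in SLO (-0.23 ± 0.04, adjusted p = 8.81e-06) and fell by 15.98% in SLO ½ (-0.25 ± 0.04, adjusted p = 5.54e-06). HERPUD1, a stress-induced organiser of that complex, had 52.3, 47.6 and 48.9 CPM in VEH, 60.8, 60.8 and 57.8 under SLO ½ and 66.2, 65.04 and 62.7 under SLO. Its groups did not overlap. HERPUD1 rose 1.30-fold in SLO (0.38 ± 0.051, adjusted p = 1.48e-07) and 1.21-fold in SLO ½ (0.27 ± 0.051, adjusted p = 5.5e-05). EDEM1, a lectin-like protein that marks misfolded glycoproteins for disposal, had 82.6, 87.7 and 87.7 CPM in VEH, 73.3, 73.4 and 73.9 under SLO ½ and 61.02, 63.5 and 70.2 under SLO. It stepped down from group to group with no overlap. EDEM1 fell by 24.7% in SLO (-0.41 ± 0.05, adjusted p = 3.45e-08) and by 14.5% in SLO ½ (-0.23 ± 0.049, adjusted p = 0.000295). Its difference between the doses was -0.18 ± 0.051 (adjusted p = 0.00458), with 0.0525 by limma on log2(TPM + 1), by which HERPUD1 was called higher in SLO than in SLO ½ (0.14, adjusted p = 0.0217). The derlins form the channel through which proteins leave the ER. DERL1 and DERL2 were not called in any comparison, with log2 differences against VEH from -0.086 to 0.059. With library size alone DERL1 was called higher in SLO (0.12, adjusted p = 0.0204) and in SLO ½ (0.11, adjusted p = 0.0326), and DERL2 was called lower in SLO without SLO replicate 3 (adjusted p = 0.0387). DERL3, at 3.62, 3.81 and 3.50 CPM in VEH, fell in SLO (-0.66 ± 0.2, adjusted p = 0.00591) and in SLO ½ (-0.55 ± 0.2, adjusted p = 0.0197). The value in SLO was -1.01 without SLO replicate 2. These calls rest on few reads, and were lost without SLO replicate 1 (adjusted p = 0.0539) and without SLO ½ replicate 2 (0.102), respectively.

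The translocon subunits went opposite ways. SEC61A1, which encodes the pore, had 367, 379.7 and 368 CPM in VEH, 419.6, 409 and 420.5 under SLO ½ and 413, 407 and 414 under SLO. Both treated groups lay above VEH and overlapped each other. SEC61A1 rose 1.11-fold in SLO (0.15 ± 0.038, adjusted p = 0.00118) and 1.12-fold in SLO ½ (0.16 ± 0.037, adjusted p = 0.000531). SEC61B, the small beta subunit, had 61.8, 58.2 and 68.7 CPM in VEH, 57.8, 60.2 and 55.95 under SLO ½ and 52.1, 52.5 and 51.0 under SLO. All SLO libraries lay below VEH, and SLO ½ overlapped VEH with 2 of its 3 libraries below the VEH range. SEC61B fell by 17.7% in SLO (-0.28 ± 0.056, adjusted p = 6.63e-05), with -0.12 ± 0.055 in SLO ½ (adjusted p = 0.0643), which passed without VEH replicate 2 (0.0105), by limma on log2(TPM + 1) (0.0273) and with the size factors of DESeq2 (0.0442). Its difference between the doses (-0.16 ± 0.056, adjusted p = 0.0223) lost its call without SLO ½ replicate 2 (0.105) or SLO replicate 3 (0.0747), with library size alone (0.0579), by DESeq2 (0.0649) and by limma on log2(TPM + 1) (0.0831).

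Levels per length, as TPM, which divides the reads of a gene by its length and sums to 1000000 in each library, spanned the whole range from major to scarce mRNAs. In VEH the most abundant was CALR (2084 ± 78.8 TPM, mean ± SD, n = 3), followed by HSPA5 (886 ± 45.2), HSP90B1 (691 ± 12.9) and P4HB (625 ± 24.99). The scarcest were DERL3 (4.51 ± 0.198), TXNDC5 (4.47 ± 0.119) and ERN1 (2.21 ± 0.0773). DERL3 and TXNDC5 did not differ beyond their spread. The order of the most abundant changed with treatment, as PDIA6 went from rank 5 in VEH to rank 7 under SLO ½ and rank 9 under SLO, and P4HB reached 724 ± 14.7 TPM in SLO where HSP90B1 had 575 ± 36.2. The TPM of the 34 genes summed to 8873 ± 159 in VEH, 8921 ± 173 under SLO ½ and 8654 ± 324 under SLO (mean ± SD), and these ranges overlapped. As a share of gene reads, without division by length, the 34 genes took 1.178% to 1.201% in VEH, 1.235% to 1.251% under SLO ½, which lay above VEH in every library, and 1.172% to 1.244% under SLO, which overlapped both. These shares were not scaled by TMM. Its factors were 0.968 to 0.974 in VEH and 1.003 to 1.008 in SLO ½, and dividing by them makes the difference between these groups smaller. In SLO, replicate 2 had the lowest CPM of its group in 24 of the 34 genes, and replicate 1 the highest in 19, where the lowest libraries of VEH and SLO ½ held that place in at most 14. SLO replicate 2 also had 8.38% of its reads in the class that matched no gene feature in the strand-specific count, against 6.64% and 7.24% in the other SLO libraries. Replicate 2 had the highest such share in the other groups too. It was 6.62% in VEH, against 5.54% and 6.16%, and 8.01% in SLO ½, against 7.11% and 6.91%. The part of SLO replicate 2 in the results was not tested beyond leaving it out. With it left out, all 26 calls of SLO against VEH were kept, and CALR was called higher in addition.

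**Figure D3:**
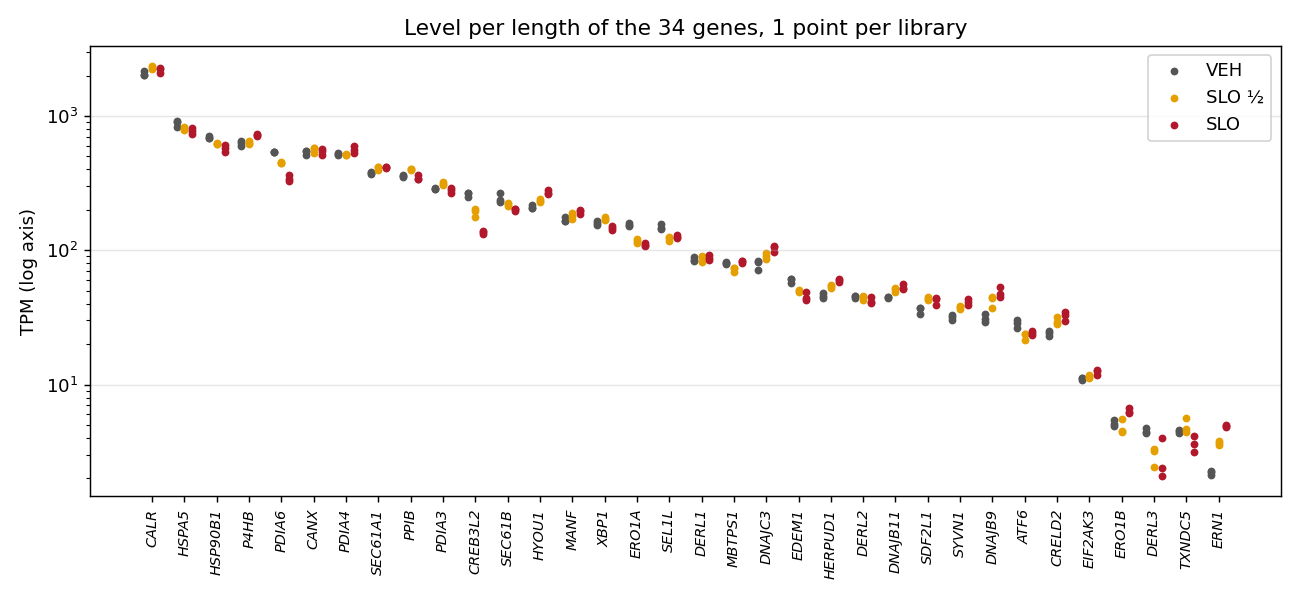
TPM of each of the 34 genes in each library on a log axis, ordered by the mean of the 3 VEH libraries. CALR has the highest level (2084 TPM in VEH) and ERN1 the lowest (2.21), and the 3 groups of most genes lie close together beside the distance between genes.

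Genes with and without an ERSE moved in both directions. Of the 11 genes with an ERSE or ERSE-II in a window, 5 were higher and 4 lower in SLO, with a median log2 fold change of 0.089. Of the 20 with no exact match of either, 10 were higher and 6 lower, with a median of 0.076. In SLO ½ the counts were 7 and 2 of the 11 (median 0.15) and 8 and 6 of the 20 (0.085). Over all tested genes 32.9% were higher and 32.1% lower in SLO, and 26.7% and 25.3% in SLO ½. The 3 genes with ERSE-II, HYOU1, HERPUD1 and SDF2L1, were called higher in SLO against VEH and in SLO ½ against VEH, comparisons that share the VEH libraries. The SLO call of SDF2L1 was kept in only 7 of 16 alternatives. Among the 8 with ERSE the changes in SLO ran from -0.64 for PDIA6 to 0.44 for CRELD2, sites printed above. These counts are a description, with no test of the motif.

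**Figure D4:**
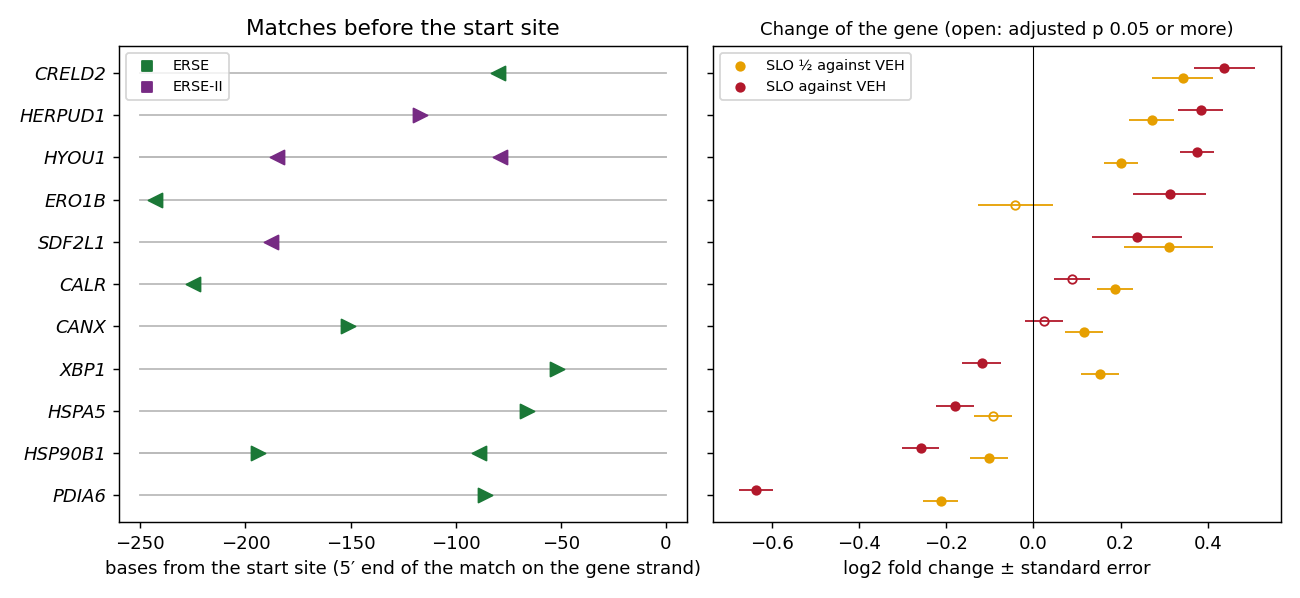
Left, the distance in bases from the annotated start of each ERSE (green) and ERSE-II (purple) in 11 genes, with arrowheads in the direction of the motif relative to the gene. Right, log2 fold change with standard error of the same genes for SLO ½ and SLO against VEH, with open circles for an adjusted p of 0.05 or more. The genes are ordered by their change in SLO, from PDIA6 (-0.64) to CRELD2 (0.44), and matches lie from 243 to 52 bases before the start.

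Around the 34 genes, other parts of the pathway were counted from lists by function. In the branch that PERK, ATF4 and CHOP share, 9 of 14 genes rose (64.3%) and 5 fell (35.7%) in SLO, against 4 and 4 (28.6% each) in SLO ½. Over all tested genes 32.9% were higher and 32.1% lower in SLO, and 26.7% and 25.3% in SLO ½. ATF3, a stress-induced factor, went from 11.8, 12.7 and 10.9 CPM in VEH to 41.9, 43.7 and 37.9 in SLO (1.82 ± 0.082, adjusted p = 1.98e-17). SESN2, a regulator of mTORC1 that ATF4 and p53 induce, rose by 1.14 ± 0.075 on the log2 scale (adjusted p = 8.32e-14). ATF4 itself fell (-0.41 ± 0.042, adjusted p = 1.07e-09), as did DDIT4, another mTORC1 inhibitor (-0.92 ± 0.063, adjusted p = 2.44e-13). DDIT3, which encodes CHOP and was picked after its values were seen, rose in SLO (0.32 ± 0.084, adjusted p = 0.00128) and was not called in SLO ½ (0.0085 ± 0.086, adjusted p = 0.942), with 0.32 ± 0.083 between the doses (adjusted p = 0.00295). Of the other transducers and partners of the response, 2 of 11 rose (18.2%) and 6 fell (54.55%) in SLO. CREB3L1, the closest relative of CREB3L2, fell (-0.80 ± 0.053, adjusted p = 8.44e-14), as did ATF6B, the relative of ATF6 (-0.42 ± 0.055, adjusted p = 1.09e-07). CREB3, another ER-bound factor of that family, rose (0.39 ± 0.055, adjusted p = 3.91e-07), as did WFS1, an ER membrane protein that restrains ATF6 (0.22 ± 0.055, adjusted p = 0.00118).

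Folding factors beyond the 34 were also divided, with 14 of 34 higher (41.2%) and 11 lower (32.4%) in SLO. Over all tested genes 32.9% were higher and 32.1% lower, so a division of this kind is not particular to these genes. CLGN, a calnexin relative best known from the testis, went from 10.8, 10.96 and 12.3 CPM in VEH to 36.7, 33.96 and 39.6 in SLO (1.69 ± 0.078, adjusted p = 3.3e-17). FKBP9, a prolyl isomerase, rose as well (0.85 ± 0.057, adjusted p = 1.28e-13). HSPA13, an Hsp70 relative, and SELENOF, a selenoprotein, fell (-0.28 ± 0.043 and -0.28 ± 0.049, adjusted p = 1.62e-06 and 1.33e-05). Among other genes of degradation, 12 of 31 rose (38.7%) and 9 fell (29.03%), near the shares of all tested genes. UBE2J1, an ER ubiquitin-conjugating enzyme, and OS9, a lectin of the HRD1 complex, rose (0.69 ± 0.045 and 0.49 ± 0.042, adjusted p = 9.03e-14 and 2.45e-11), while ERLIN1 and the ligase MARCHF6 fell (-0.47 ± 0.041 and -0.23 ± 0.044, adjusted p = 4.03e-11 and 4.68e-05). Of the other translocation and signal peptide genes, 5 of 23 rose (21.7%) and 11 fell (47.8%). SRP72, a subunit of the signal recognition particle, and SEC61G, the third Sec61 subunit, fell (-0.63 ± 0.042 and -0.49 ± 0.057, adjusted p = 1.53e-13 and 1.23e-08), and TRAM2 and SRP19 rose (0.27 ± 0.041 and 0.44 ± 0.068, adjusted p = 1.73e-06 and 2.09e-06). In the oligosaccharyltransferase, which adds sugar chains, 3 of 12 subunits rose (25%) and 2 fell (16.7%). The rises included RPN2 and TUSC3 (0.45 ± 0.04 and 0.21 ± 0.043, adjusted p = 6.45e-11 and 9.29e-05). The falls were those of STT3A and DDOST (-0.24 ± 0.038 and -0.10 ± 0.044, adjusted p = 3.33e-06 and 0.0473).

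Genes of transport between the ER and the Golgi went mainly down and ER-phagy receptors mainly up. The former were 16 genes of the COPII coat, of cargo transport such as LMAN1 and of the KDEL receptors. These carry proteins out of the ER and return chaperones to it. Of the 16, 12 fell and 1, SAR1A, rose in SLO (0.19 ± 0.039, adjusted p = 0.000116), with a median of -0.24. In SLO ½ 6 fell and 1 rose, and 11 were lower in SLO than in SLO ½. The falls were 75% of the list in SLO, 37.5% in SLO ½ and 68.75% between the doses. Over all tested genes they were 32.1%, 25.3% and 20.3%. LMAN1, the cargo receptor ERGIC-53, had 378, 369.6 and 354 CPM in VEH, 286, 267 and 276 under SLO ½ and 219, 216 and 226 under SLO (-0.74 ± 0.041 in SLO against VEH, adjusted p = 1.81e-15). KDELR1, which retrieves proteins such as BiP and GRP94, fell as well (-0.52 ± 0.045, adjusted p = 3.35e-11). Of 6 receptors for ER-phagy, the autophagy of ER, 5 rose in SLO (83.3%), with a median of 0.42, and 2 rose in SLO ½ (33.3%). Over all tested genes 32.9% were higher in SLO and 26.7% in SLO ½. CCPG1 rose by 0.57 ± 0.072 and RTN3 by 0.27 ± 0.041 (adjusted p = 5.95e-08 and 1.42e-06). Enzymes that modify collagen rose in 7 of 11 cases (63.6%) and fell in 2 (18.2%) in SLO. P4HA2, which pairs with P4HB, had 92.7, 94.2 and 94.4 CPM in VEH and 168, 167 and 167 in SLO (0.83 ± 0.04, adjusted p = 5.34e-17), and P3H1 rose by 1.01 ± 0.05 (adjusted p = 1.56e-16). CRTAP, the partner of P3H1, and P3H3 fell (-0.19 ± 0.042 and -0.20 ± 0.08, adjusted p = 0.00019 and 0.0325).

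**Figure D5:**
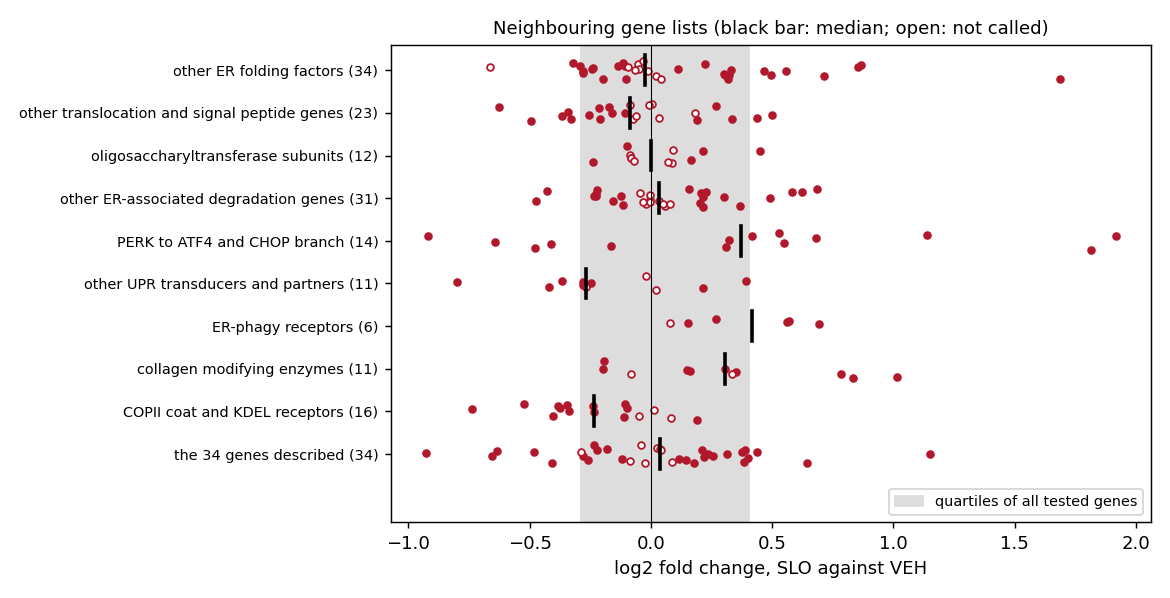
Log2 fold change in SLO against VEH of the tested genes of 9 lists and of the 34 genes, with 1 point per gene, a black bar at the median and the number of genes in brackets. Open circles were not called, the points are spread vertically at random within a list, and the grey band spans the quartiles of all 14727 tested genes. The ER-phagy median (0.42) lies highest and that of the other UPR (unfolded protein response) transducers and partners (-0.27) lowest, with the 34 genes at 0.039.

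The labelled cell type was checked against marker genes. Among microglia markers, P2RY12, TYROBP and C1QA had 0 reads in every library. CSF1R and TREM2 did not exceed 1.2 CPM, and both were called higher in each comparison with VEH. Mesenchymal genes were abundant, with FN1 at 22800, 23590 and 20330 CPM in VEH and COL1A1 at 2340, 2599 and 2165. The summed mesenchymal markers took 2.46% to 2.79% of gene reads in VEH, 2.25% to 2.32% under SLO ½ and 1.91% to 1.99% under SLO. This sum moved with its most abundant gene, FN1 (11630, 12350 and 12440 CPM in SLO), while COL1A1 rose to 3335, 3217 and 3374, and of the 7 markers tested 4 were higher and 3 lower in SLO (median log2 fold change 0.25) and 4 higher and 2 lower in SLO ½ (0.17). These shares moved with the groups, and their part in the results was not tested. The libraries held 14834295 to 19674841 reads on genes, and the biological coefficient of variation between libraries of a group was 2.89% to 4.53%.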

How the data were processed

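RNA of HMC3 cells was sequenced in 9 libraries, 3 each of VEH, SLO ½ and SLO, and groups were read from the sample titles. The authors used Trimmomatic 0.38 for trimming and STAR 2.7.1a for alignment to GRCh38, and deposited raw read counts per gene, strand-specific, and TPM scaled for gene length; the annotation release is not given in the sources used here. The counts were fitted by edgeR 4.0.16 under R 4.3.3, after filterByExpr (14727 genes kept) and TMM scaling, by a quasi-likelihood model of the group over all 9 libraries, adjusted over all tested genes by the Benjamini-Hochberg method. The authors used DESeq2, which was run here as an alternative (1.42.0), as was limma 3.58.1 on log2(TPM + 1). The 34 genes and all lists were chosen with earlier results of these data known. Every one of the 34 is accounted for. Values by library are given for the 3 genes of each role that had the lowest p for SLO against VEH, for all sensors and for genes whose direction differed between doses, and those of HSPA5, HSP90B1, ERO1B and DERL3 were added after seeing them. From each other list the 2 genes with the smallest p per direction are named. The scripts were tested on simulated data. Sequences are RefSeq windows. Replicate numbers paired the libraries weakly at most. Deviations of libraries with the same number correlated by 0.0028 to 0.087, and those with different numbers by -0.062 to 0.037. The highest value was that of SLO ½ replicate 2 with SLO replicate 2. A search for ER retrieval signals in the proteins was not run. Of the microglia markers, 1 is not reported here.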

Additional observations from a re-analysis of the deposited data

Results flagged for a closer look

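XBP1 was called in opposite directions at the 2 doses, and the difference between the doses was itself tested: SLO against SLO ½ gave a log2 fold change of -0.27 (adjusted p = 1.16e-05, edgeR), with all 3 SLO libraries (91.8, 94.5 and 98.1 CPM) below all 3 SLO ½ libraries (116, 116 and 110.3 CPM). Against VEH the values were 0.15 in SLO ½ and -0.12 in SLO. The fall in SLO lost its call with library size alone (-0.043, adjusted p = 0.392), with at least 10 counts in every library (0.0569), without VEH replicate 1 (0.0761) and without SLO replicate 1 (0.0874). It was the only gene of the 34 called in both directions against VEH by the edgeR test, and the gene-level counts do not separate its spliced and unspliced forms.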

How the results depend on the processing

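Of the 34 genes, 20 of the 26 calls in SLO against VEH, 16 of 25 in SLO ½ against VEH and 8 of 16 between the doses were kept under every alternative run, and the 31 reversals of direction all concerned genes that were not called. Leaving out 1 library gave 13 to 16 genes higher and 9 to 12 lower in SLO (median 0.019 to 0.063), 14 to 15 and 6 to 9 in SLO ½ (median 0.081 to 0.11), and 5 to 8 and 9 to 12 between the doses (median -0.043 to -0.00087). With library size alone the median was 0.11 in SLO and 0.16 in SLO ½. The SLO ½ median was 0.13 with at least 10 counts in every library, 0.061 by limma on log2(TPM + 1), filtered or not, and 0.063 with a pseudocount of 0.1. By DESeq2 the calls lost were SDF2L1 in SLO (adjusted p = 0.127), SDF2L1 and MANF in SLO ½ (0.0537 and 0.0697), and SEC61B and TXNDC5 between the doses (0.0649 and 0.0647), and the call gained was HSPA5 in SLO ½ (0.0466). Unfiltered TPM left 5 genes lower between the doses. Across the alternatives other than leaving a library out, 13 to 19 genes were higher and 10 to 11 lower in SLO, and 11 to 19 and 7 to 11 in SLO ½. With the replicate number as a block, 16 were higher and 11 lower in SLO, 16 and 9 under SLO ½, and 7 and 11 between the doses. The block moved no count by more than 1.5 times, and since libraries with the same number correlated by at most 0.087, it was not used further. Direction changed near 0 as follows. With library size alone it did so for PDIA3 (0.051) and PPIB (0.034) in SLO, for ERO1B (0.0088) in SLO ½, and for DERL1 (0.0058) and SEC61A1 (0.0068) between the doses. Called values that this scaling moved by over 1.5 times were HSPA5 (-0.11), ATF6 (-0.15), XBP1 (-0.043), PDIA4 (0.19) and SEC61A1 (0.22) in SLO, and HSP90B1 (-0.051) and MBTPS1 (-0.07) in SLO ½. With at least 10 counts PDIA3 was 0.00044 in SLO. By limma on log2(TPM + 1), filtered or not, values were -0.015 for PDIA4 and -0.023 for DERL2 in SLO ½, and 0.016 for DERL1 and 0.017 for SEC61A1 between the doses. With a pseudocount of 0.1 they were -0.015, -0.024, 0.016 and 0.017. Leaving out 1 library gave -0.010 to 0.061 for CANX and -0.055 to 0.013 for PDIA3 in SLO, -0.0029 to 0.032 for DERL2 and -0.15 to 0.012 for ERO1B in SLO ½, and between the doses -0.054 to 0.0073 for DERL1, -0.025 to 0.041 for DNAJB11, -0.0092 to 0.033 for SEL1L and -0.45 to 0.081 for DERL3. The cause was not tested. The 3 libraries per group and the few reads of DERL3, TXNDC5 and SDF2L1 limit what could be called.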
